A study of Arabidopsis thaliana with 32 samples.

Results

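The PACLOBUTRAZOL RESISTANCE genes PRE1 to PRE6 and their partner gene IBH1 were followed through low R/FR (little red relative to far-red light, as in shade) and warmth in Arabidopsis seedlings. The genes were taken by identifier, 7 of the 33602 genes in the count table: PRE1 (AT5G39860), PRE2 (AT5G15160), PRE3 (AT1G74500), PRE4 (AT3G47710), PRE5 (AT3G28857), PRE6 (AT1G26945, also KIDARI) and IBH1 (AT2G43060). PRE1, PRE2, PRE3, PRE6 and IBH1 had more than 1 CPM (a gene's counts scaled to the size of the library) in at least 2 libraries and were tested, and PRE4 and PRE5 did not reach this level in any library.

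Wild-type Col-0 seedlings grew for 3 days at 21 °C in constant white LED light of about 70 µE. They were then left there (21WL) or moved to 1 of 3 other conditions: 21FR, with far-red light added at the same temperature to a red to far-red ratio (R/FR) of 0.6; 30WL, in white light at 30 °C; and 30FR, with the low R/FR and the 30 °C combined. About 25 whole seedlings per sample were collected after 1, 3, 6 or 24 h, which gave 16 groups (condition and time) of 2 biological replicates, or 32 libraries. In the study a replicate is an independent pool of plants grown side by side, so that p-values cover the spread between such pools. Organs were not separated, so a change in the share of expressing cells and a change of RNA per cell cannot be told apart, and seedling age moves with the time in a condition.

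PRE proteins are small helix-loop-helix (HLH) proteins that lack the basic region needed to bind DNA. They pair with inhibitory HLH proteins such as IBH1. When free, IBH1 binds growth-promoting bHLH transcription factors such as HBI1 and keeps them from DNA, and PRE proteins that take up IBH1 set these factors free to promote cell elongation. PRE1 is a known target of brassinosteroid and gibberellin signalling, PRE3 (also TMO7) is an auxin-dependent gene of the embryonic root, and KIDARI has a part in light signalling through binding to HFR1.

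Whole-seedling libraries held RNA of all organs expected for the label: photosynthesis transcripts dominated (RBCS1A 13969 to 33440 CPM), the root markers PER34, RHD6, EXPA7 and COBL9 were above 5 CPM in all 32 libraries, and the shoot apex marker STM was at 1.46 to 2.85 CPM. CLV3, another apex marker, had 1 to 11 counts a library, and the seed storage transcripts CRA1 and CRU3 reached 15.4 and 6.89 CPM in their highest library, replicate 2 of 30WL at 24 h. Gene counts summed to 7606788 to 28170966 per library (median 18502913). Replicate 1 of 30WL at 6 h had the lowest sum. It also had the highest share of a library's entries for reads aligned to more than 1 place (50.4%, against 10.5% in the lowest library). Replicate 2 of the same group was at 38.8%, and the libraries of 21FR at 3 h were at 35.3 and 36.5%. The part of this share in the comparisons with 30WL at 6 h was not tested. A count of 3, the limit that a count of 0 allows, corresponded to 0.104 to 0.371 CPM. Over all 20145 genes tested, the median log2 fold change (log2FC) lay within 0.03 of 0 in each comparison.

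All 7 genes are short, and the 6 PRE genes have the same build of 2 exons in the TAIR10.1 annotation of RefSeq. PRE1 lies at chr5:15957368-15958559 (plus strand), PRE2 at chr5:4921243-4922812 (minus), PRE3 at chr1:27997919-27998821 (minus), PRE4 at chr3:17590544-17591670 (plus), PRE5 at chr3:10855623-10856787 (minus) and PRE6 at chr1:9351160-9352833 (plus). IBH1, at chr2:17909007-17910210 (plus), has 1 exon. The coding sequences code for 92 to 94 residues in the PREs and 156 in IBH1. PRE pairs shared 64.5 to 84.6% of their aligned coding bases, and IBH1 shared 58.9 to 66.2% with the PREs. PRE1 and PRE5 were the closest pair, and both spliced coding sequences are shown because the first was the member with the largest response and the other was close to the detection limit. Each has 279 bases, and capitals mark the 43 positions at which they differ.

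PRE1 coding sequence, between chr5:15957689-15958303: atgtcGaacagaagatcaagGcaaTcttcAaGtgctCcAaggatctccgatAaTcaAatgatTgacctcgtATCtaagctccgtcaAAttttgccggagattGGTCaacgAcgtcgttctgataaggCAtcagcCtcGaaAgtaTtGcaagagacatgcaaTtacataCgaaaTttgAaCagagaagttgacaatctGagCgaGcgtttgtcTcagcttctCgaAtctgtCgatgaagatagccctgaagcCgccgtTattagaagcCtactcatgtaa
PRE5 coding sequence, between chr3:10855781-10856313, minus strand: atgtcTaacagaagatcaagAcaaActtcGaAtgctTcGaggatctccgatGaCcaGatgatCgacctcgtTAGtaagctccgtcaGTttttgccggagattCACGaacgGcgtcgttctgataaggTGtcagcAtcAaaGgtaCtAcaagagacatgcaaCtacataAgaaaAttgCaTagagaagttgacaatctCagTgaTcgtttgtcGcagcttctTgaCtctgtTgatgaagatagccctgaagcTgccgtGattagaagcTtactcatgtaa

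The longest stretch without a difference was 20 bases, shorter than a read of 50 bases. No stretch of 50 bases of any of the 7 mRNAs had an exact match elsewhere in the genome or in the mRNA of another member. Spliced transcripts of other genes were not searched, and no member overlapped another gene. The levels of PRE1 and PRE5 can thus be read as separate at exact matching, although the alignment allowed up to 2 mismatches.

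PIF proteins, the bHLH factors that act in low R/FR, bind the G-box (CACGTG) and the PIF-binding E-box or PBE (CACATG, on the other strand CATGTG). The 2000 bases before the annotated start of each gene were searched for both on both strands. PRE1, PRE2 and PRE3 held a G-box, 3 of the 7 members, as did 23.8% of 27440 promoters of this length. All 7 held a PBE, beside 61% of promoters. The sites below are shown because PRE1 and PRE6 were the members called higher on average in 21FR, and PRE2 holds 3 G-boxes. PRE3, which also holds a G-box, was not called in 21FR or 30FR over white light. Of the PBEs, that of PRE1 and the PRE6 site nearest the start are printed. Not printed are PBEs of PRE6 (1984 and 1418 bases before the start), PRE2 (1724 and 1657) and PRE3 (759). Those of PRE4, PRE5 and IBH1 are also not printed here. The printed sites are on the strand of the gene with the motif in capitals. The distance is that of the first base of the motif from the annotated start.

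PRE1 G-box, 1919 bases before the start, chr5:15955437-15955466: acatggtggtgaCACGTGacatagtcgatg
PRE1 PBE, 936 bases before, chr5:15956420-15956449: aagtcatgtcatCACATGgtagttgccttt
PRE2 G-box, 1452 bases before, chr5:4924247-4924276: catcatcatcatCACGTGtttagatctagc
PRE2 G-box, 1171 bases before, chr5:4923966-4923995: tcaattgaggtaCACGTGatcgagcttgga
PRE2 G-box, 14 bases before, chr5:4922813-4922838: aatttgtaaattCACGTGtcatgtat
PRE3 G-box, 1222 bases before, chr1:28000026-28000055: ctcccgaaatgcCACGTGtgtgttgttttg
PRE6 PBE, 77 bases before, chr1:9351071-9351100: ttgatactacacCATGTGaatagctcgaaa

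The G-box of PRE2 next to the start was the only one in the 300 bases before a member's start, a window in which 7.09% of 27443 promoters held a G-box. A PBE was in this window in 2 of 7 members, PRE4 (63 bases before the start) and PRE6 (77 bases), and in 13.1% of promoters. CGTGCG and CGTGTG are both forms of the brassinosteroid response element. The first was in the 2000-base window of 0 of 7 members and of 9.5% of promoters. The second, CGTGTG, was in that of 2 members, PRE1 and PRE3, and of 30.3% of promoters. One of the CGTGTG matches of PRE3 overlaps its G-box. These matches describe letters in the reference and were not tested as binding sites.

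Levels of the 7 genes spanned 2 orders of size. Per kilobase of mRNA and as the mean of the 4 groups in 21WL, PRE3 stood at 23.9 CPM, PRE6 at 14.4, IBH1 at 3.66, PRE1 at 2.31, PRE2 at 1.97, PRE4 at 0.517 and PRE5 at 0.152 CPM per kilobase. Neighbours in this order overlapped over the 8 libraries of 21WL, except PRE6 and IBH1, and PRE2 and PRE4. In its highest group PRE1 reached 8.18 CPM per kilobase, above IBH1 in any group (highest 5.45) and below the lowest group of PRE6 (9.33).

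**Figure D1:**
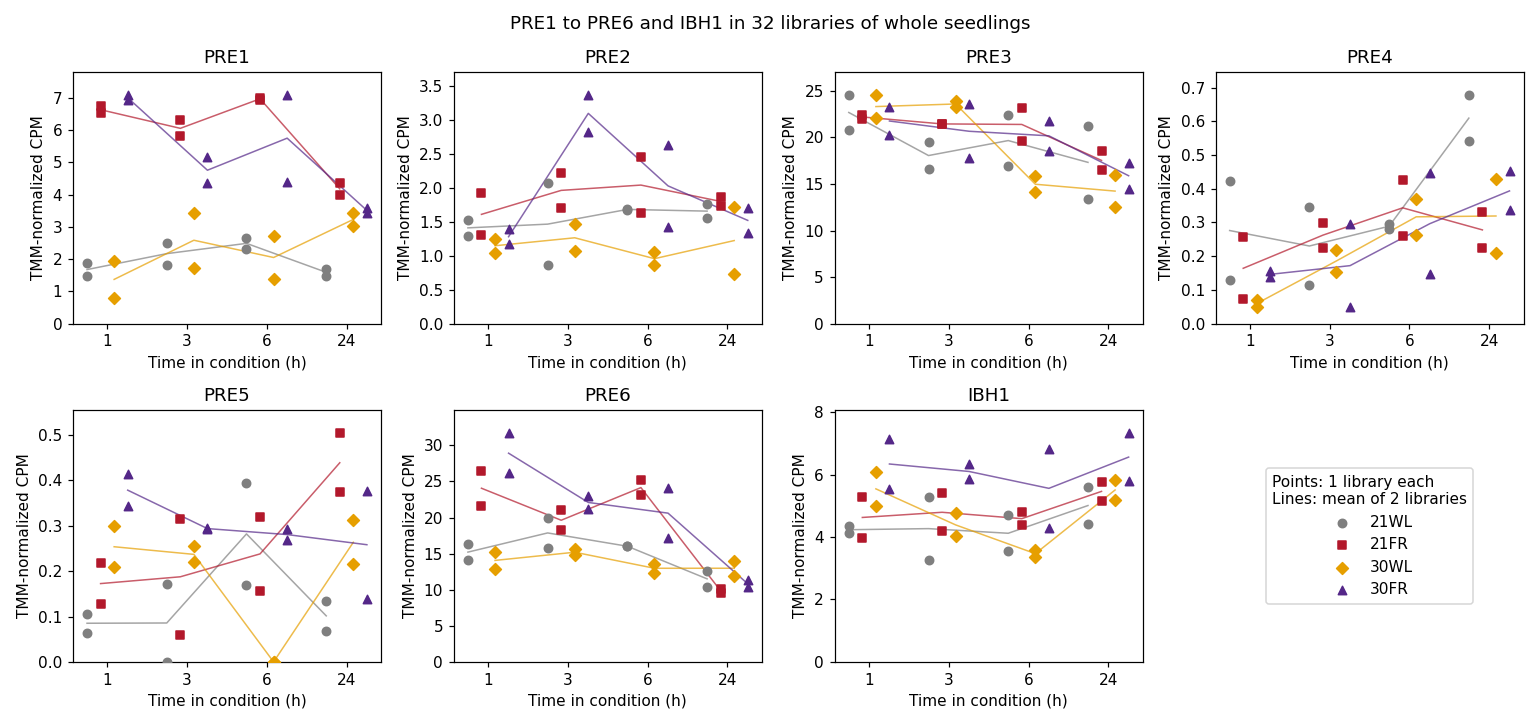
TMM-normalized CPM (y axis) of the 7 genes by time in the condition (x axis), 1 point per library, with lines through the means of 2 libraries for 21WL, 21FR, 30WL and 30FR. The PRE1 points of 21FR and 30FR lie above those of 21WL at each of the 4 time points, while PRE3 stays between 12.6 and 24.6 CPM and PRE4 and PRE5 stay below 1 CPM.

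PRE1 had the largest average response to low R/FR among the 5 members tested, at both temperatures. After 1 h its level was 1.87 and 1.48 CPM in 21WL, 6.73 and 6.52 CPM in 21FR, 1.94 and 0.798 CPM in 30WL, and 7.08 and 6.92 CPM in 30FR. The 4 libraries in low R/FR were thus close to each other and well above the 4 in white light. At 3 h the values were 2.51 and 1.83 CPM in 21WL, 5.81 and 6.30 CPM in 21FR, 3.44 and 1.73 CPM in 30WL, and 5.16 and 4.34 CPM in 30FR. At 6 h they were 2.67 and 2.31 CPM in 21WL, 6.94 and 6.99 CPM in 21FR, 2.72 and 1.38 CPM in 30WL, and 7.09 and 4.40 CPM in 30FR. At both times, low R/FR and white light again did not overlap.

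After 24 h PRE1 stood at 1.49 and 1.70 CPM in 21WL, 4.37 and 3.98 CPM in 21FR, 3.02 and 3.44 CPM in 30WL, and 3.58 and 3.44 CPM in 30FR. Libraries at 30 °C now overlapped between the lights, with those in 30WL above those in 21WL and those in 30FR below those in 21FR. Over the whole series PRE1 counts were 16 to 197 per library.

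Relative to 21WL, PRE1 rose 3.97-fold in 21FR at 1 h (log2FC 1.99 ± 0.33 SE, FDR = 0.0026, edgeR quasi-likelihood test adjusted over all genes). It rose 2.83-fold at 3 h (1.5 ± 0.32, FDR = 0.033) and 2.79-fold at 6 h (1.48 ± 0.30, FDR = 0.014). The value at 24 h, 1.39 ± 0.34, was of similar size with an FDR of 0.064. PRE1 was the 1 member called higher among the 5 tested at 1, 3 and 6 h, beside 0.328, 0.343 and 0.645% of all genes, and 0 members were called at 24 h beside 0.278%, at which edgeR's likelihood ratio test (FDR = 0.0037) and DESeq2 (FDR = 0.017) called PRE1. Averaged over the 4 time points it was 3.01-fold higher (log2FC 1.59 ± 0.16, FDR = 9.7e-07), and this call held without any 1 of the 16 libraries (1.52 to 1.63). With 2 libraries a group the calls at single times were less firm: those at 3 h and 6 h were lost without any 1 of the 4 libraries compared (log2FC 1.26 to 1.70 and 1.38 to 1.56), and that at 1 h without replicate 2 of 21WL (1.82, FDR = 0.137).

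In 30FR the same control libraries of 21WL were used, so its values are not an independent repeat. PRE1 was 4.19-fold higher than in 21WL at 1 h (log2FC 2.07 ± 0.32, FDR = 6.6e-05), 2.22-fold at 3 h (1.15 ± 0.32, FDR = 0.012), 2.29-fold at 6 h (1.2 ± 0.30, FDR = 0.0067) and 2.20-fold at 24 h (1.14 ± 0.34, FDR = 0.019). Higher calls made up 15.6, 12.3, 12 and 9.29% of all genes at these times, and of the 5 members tested 2 were called at 1 h, 2 at 3 h, 1 at 6 h and 1 at 24 h. The call of PRE1 at 24 h was lost without any 1 of its 4 libraries (log2FC 1.05 to 1.24), that at 3 h without replicate 2 of 21WL (0.92) or replicate 1 of 30FR (1.02), and that at 6 h without replicate 2 of 21WL (1.09) or replicate 1 of 30FR (0.82). The call at 1 h and the mean over time (1.39 ± 0.16, FDR = 3.6e-07) were kept without any 1 library.

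Within 30 °C, where 30FR was compared with 30WL, the PRE1 response was 5.31-fold at 1 h (log2FC 2.41 ± 0.33, FDR = 0.00029), 0.92 ± 0.31 on the log2 scale at 3 h (FDR = 0.15), 2.97-fold at 6 h (1.57 ± 0.34, FDR = 0.036) and 0.11 ± 0.32 at 24 h (FDR = 0.94, 95% interval -0.55 to 0.77). At 1, 3, 6 and 24 h, 2, 0, 1 and 0 of the 5 members were called higher, beside 0.72, 1.13, 0.318 and 0.338% of all genes. At 1 h the value was 1.84 without replicate 2 and 3.12 without replicate 1 of 30WL, with the call kept. At 6 h the call was lost without either library of 30WL (2.05 and 1.07) and without replicate 1 of 30FR (1.2). The fall of this response from 1 h to 24 h, a contrast added after the values were seen, was -2.30 ± 0.47 on the log2 scale (FDR = 0.017, with 0.675% of all genes called lower), with its call lost in 6 of the 8 fits that left out 1 library. Its value was -3.01 without replicate 1 of 30WL at 1 h and -1.73 without replicate 2. At 21 °C the matching change was -0.60 ± 0.48 (FDR = 0.99997), and it was not tested against that at 30 °C.

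Warmth in white light gave no call for PRE1. Its log2FC in 30WL over 21WL was -0.34 ± 0.38 at 1 h, 0.24 ± 0.35 at 3 h, -0.38 ± 0.36 at 6 h and 1.03 ± 0.36 at 24 h (FDR = 0.068 at the last). At 24 h both libraries of 30WL were above both of 21WL, and the likelihood ratio test (FDR = 0.033), a fit of this time point alone (FDR = 0.028) and the replicate number as a block (FDR = 0.036) called it. Organ markers also moved at this time: CRA1 was at 5.41 and 15.4 CPM in 30WL, against 0.675 and 0.272 CPM in 21WL and 0.695 and 5.87 CPM in 30FR. CRU3 was at 0.208 and 6.89 CPM in 30WL and at most 0.270 CPM in 21WL and 30FR. Group means of the leaf markers LHCB2.1, LHCB1.3 and CAB4 were 631, 5940 and 4142 CPM in 30WL, 401, 6801 and 2419 CPM in 21WL, and 159, 2535 and 2072 CPM in 30FR, while RBCS1A was at 16040, 27609 and 14443 CPM in these groups. Means of the root markers PER34, RHD6, EXPA7 and COBL9 were 68.2, 7.55, 20.2 and 12.5 CPM in 30WL, 88.3, 9.16, 16.7 and 15.7 CPM in 21WL, and 55.2, 10.3, 27.3 and 15.8 CPM in 30FR, and those of STM and CLV3 were 1.70 and 0.335 CPM in 30WL, 2.13 and 0.136 CPM in 21WL, and 2.45 and 0.0767 CPM in 30FR. The part of these markers in the PRE1 values at 24 h was not tested.

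From 1 h to 24 h PRE1 changed by -0.07 ± 0.38 on the log2 scale in 21WL (FDR = 0.95). In 21FR it changed by -0.67 ± 0.29 (FDR = 0.15). Against the change in 21WL, those in 30WL and 30FR were not shown to differ (1.37 ± 0.53, FDR = 0.22, and -0.93 ± 0.47, FDR = 0.25). Within 30WL, PRE1 rose 2.47-fold from 1 h to 24 h (1.3 ± 0.37, FDR = 0.010, with 15.1% of all genes called higher). Without replicate 2 of 30WL at 1 h (0.74, FDR = 0.178) or at 24 h (1.2, FDR = 0.089) that rise was not called, and without replicate 1 at 1 h it was 2.02. Within 30FR it fell to 0.50 of the level at 1 h (-0.99 ± 0.29, FDR = 0.0082, with 20.8% of all genes called lower), a call lost by a narrow margin without replicate 2 at 24 h (-0.97, FDR = 0.051).

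**Figure D2:**
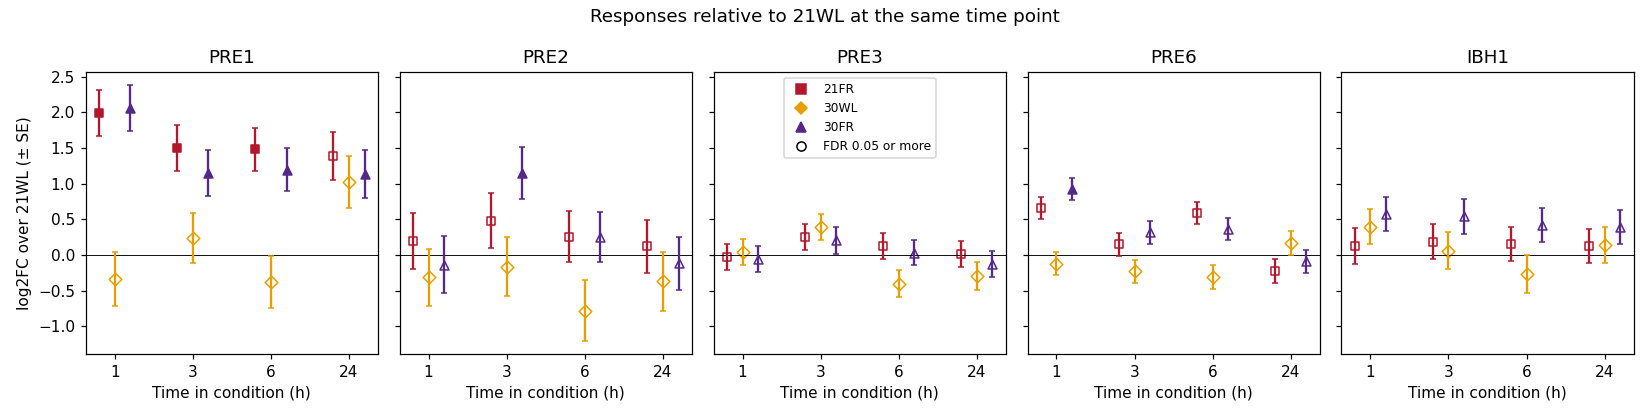
Log2FC over 21WL at the same time point (y axis, ± SE) by time in the condition (x axis) for the 5 genes tested in 21FR, 30WL and 30FR, with filled symbols for an FDR under 0.05. Filled symbols occur for PRE1 in 21FR and 30FR, for PRE2 in 30FR at 3 h and for PRE6 in 30FR at 1 h, and the 30WL symbols are all open.

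PRE6, one of the 2 most abundant members, also responded to low R/FR, with smaller average values than PRE1. After 1 h it was at 14.1 and 16.3 CPM in 21WL, 26.5 and 21.6 CPM in 21FR, 15.2 and 12.9 CPM in 30WL, and 26.1 and 31.7 CPM in 30FR. At 3 h it was at 19.9 and 15.8 CPM in 21WL, 21.0 and 18.2 CPM in 21FR, 15.6 and 14.8 CPM in 30WL, and 21.2 and 23.0 CPM in 30FR. Low R/FR and white light were apart at both temperatures at 1 h, and within 30 °C alone at 3 h. At 6 h it was at 16 and 16 CPM in 21WL, 25.2 and 23.1 CPM in 21FR, 13.6 and 12.3 CPM in 30WL, and 24.1 and 17.1 CPM in 30FR. At 24 h it was at 12.6 and 10.4 CPM in 21WL, 10.1 and 9.54 CPM in 21FR, 14 and 11.9 CPM in 30WL, and 10.3 and 11.3 CPM in 30FR, so that the libraries in low R/FR were now below those in white light of the same temperature.

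In 30FR, PRE6 was 1.90-fold above 21WL at 1 h (log2FC 0.93 ± 0.16, FDR = 0.00014) and 2.07-fold above 30WL (1.05 ± 0.16, FDR = 0.00063), and both calls were kept without any 1 of their libraries. In 21FR it was 0.66 ± 0.16 at 1 h (FDR = 0.097) and 0.59 ± 0.15 at 6 h (FDR = 0.085), and the likelihood ratio test called both (FDR = 0.026 and 0.032). In 30FR over 30WL it was 0.54 ± 0.16 at 3 h (FDR = 0.081) and 0.67 ± 0.16 at 6 h (FDR = 0.082), which the likelihood ratio test also called (FDR = 0.049 and 0.024). Averaged over time, its log2FC over 21WL was 0.38 ± 0.08 in 30FR (FDR = 0.00037) and 0.29 ± 0.08 in 21FR (FDR = 0.046), the second lost in 13 of 16 fits without 1 library (0.24 to 0.33). PRE1 and PRE6 were the 2 of 5 members called on average in 21FR, beside 1.86% of all genes. In 30WL the average of PRE6 was -0.12 ± 0.08 (FDR = 0.23).

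The higher early level of PRE6 in low R/FR was not seen at 24 h. From 1 h to 24 h its level fell to 0.41 in 21FR (log2FC -1.29 ± 0.16, FDR = 2.8e-05, with 5.33% of all genes called lower) and to 0.37 in 30FR (-1.42 ± 0.16, FDR = 5.7e-07, with 20.8%). In white light the change was -0.40 ± 0.16 in 21WL (FDR = 0.16, with 2.41%) and -0.12 ± 0.17 in 30WL (FDR = 0.63, with 15.4%). The response of 30FR over 30WL fell by 1.3 ± 0.23 between these times (FDR = 0.0048) and that of 30FR over 21WL by 1.02 ± 0.23 (FDR = 0.0094), beside 0.675 and 4.13% of all genes called lower. The first of these was not called without replicate 1 of 30WL at 24 h (FDR = 0.053). In 21FR over 21WL the matching value was -0.88 ± 0.23 (quasi-likelihood test, unadjusted p = 0.00091, FDR = 0.30), with 0.0745% of all genes called lower. The changes at 21 °C and 30 °C were not tested against each other.

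**Figure D3:**
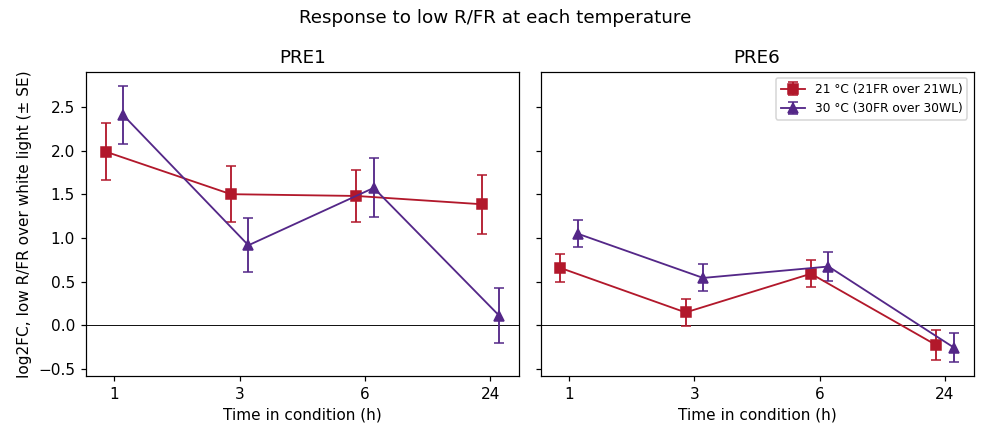
Log2FC of low R/FR over white light (y axis, ± SE) by time in the condition (x axis) for PRE1 and PRE6, at 21 °C (21FR over 21WL, squares) and at 30 °C (30FR over 30WL, triangles). At 24 h the PRE1 value is 1.39 at 21 °C and 0.11 at 30 °C, and the PRE6 values are -0.23 and -0.26.

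Whether low R/FR acted differently at the 2 temperatures was tested as an interaction, the log2FC of 30FR over 30WL minus that of 21FR over 21WL. For PRE1 it was 0.42 ± 0.48 at 1 h, -0.58 ± 0.45 at 3 h, 0.09 ± 0.46 at 6 h and -1.27 ± 0.47 at 24 h (unadjusted p = 0.012, FDR = 0.61, 95% interval -2.24 to -0.31). For PRE6 it was 0.39 ± 0.22, 0.39 ± 0.22, 0.08 ± 0.22 and -0.03 ± 0.24. With edgeR's quasi-likelihood test 0 of the 20 tests of members were called, 1 had an unadjusted p under 0.05, and the likelihood ratio test and DESeq2 called 0. Over all genes, 0% were called at 1, 3 and 6 h and 0.0149% at 24 h, and a difference in the PRE1 response between the temperatures was thus not shown by this test.

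PRE2 was low in all libraries (0.728 to 3.37 CPM, 7 to 80 counts) and stood out at 3 h in 30FR. Its level at 3 h was 2.08 and 0.857 CPM in 21WL, 1.71 and 2.22 CPM in 21FR, 1.46 and 1.07 CPM in 30WL, and 2.83 and 3.37 CPM in 30FR. The libraries of 30FR were the highest, and those of 21WL were far apart. PRE2 was 2.22-fold higher in 30FR than in 21WL (log2FC 1.15 ± 0.37, FDR = 0.027), and this call was lost without replicate 2 of 21WL (0.58, FDR = 0.351) and without replicate 1 (1.26, FDR = 0.053) or replicate 2 (1.01, FDR = 0.105) of 30FR. Without replicate 1 of 21WL it was 1.83 (FDR = 0.0079). Against 30WL at 3 h the value was 1.31 ± 0.36 (FDR = 0.070).

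At the other times PRE2 overlapped between 21WL and 30FR, with 1.29 and 1.53 against 1.17 and 1.39 CPM at 1 h, 1.68 and 1.69 against 2.63 and 1.43 CPM at 6 h, and 1.55 and 1.76 against 1.70 and 1.34 CPM at 24 h. In 30WL it was at 1.25 and 1.05 CPM, 0.866 and 1.05 CPM and 0.728 and 1.72 CPM at these times. Its libraries in 21FR were at 1.3 and 1.92 CPM, 2.45 and 1.63 CPM, and 1.74 and 1.87 CPM. PRE1, PRE2 and PRE6 were the 3 of 5 members called higher on average in 21FR over 30WL, where 25.3% of all genes were, and in 30FR over 30WL, where 2.85% were. PRE2 was 1.59-fold higher in the first (0.67 ± 0.20, FDR = 0.0082) and 1.62-fold in the second (0.69 ± 0.20, FDR = 0.043, lost in 12 of 16 fits without 1 library, 0.57 to 0.90). Its average in 30WL over 21WL was -0.41 ± 0.21 (FDR = 0.11).

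PRE3 was the most abundant PRE per length and passed edgeR's quasi-likelihood test in no comparison of light or warmth. Its 32 libraries lay between 12.6 and 24.6 CPM with a median of 20.6. Medians over 8 libraries were 20.2 CPM in 21WL, 21.4 CPM in 21FR, 19.0 CPM in 30WL and 19.4 CPM in 30FR. Averaged over time, the log2FC over 21WL was 0.09 ± 0.09 in 21FR (95% interval -0.10 to 0.28), -0.07 ± 0.09 in 30WL (-0.26 to 0.13) and 0.01 ± 0.09 in 30FR (-0.18 to 0.20). In 21FR over 30WL at 6 h it was 0.53 ± 0.19 (FDR = 0.061), which the likelihood ratio test (FDR = 0.046), DESeq2 (FDR = 0.048) and the fit without the low-count filter (FDR = 0.049) called. From 1 h to 24 h PRE3 fell by 0.72 ± 0.19 on the log2 scale in 30WL (FDR = 0.0071) and by 0.46 ± 0.18 in 30FR (FDR = 0.046), beside 15.4 and 20.8% of all genes called lower. Values in 21WL and 21FR were -0.39 ± 0.18 (FDR = 0.25) and -0.34 ± 0.18 (FDR = 0.25). The fall was not shown to differ from that in 21WL, with a difference of -0.33 ± 0.27 for 30WL (FDR = 0.60) and -0.07 ± 0.26 for 30FR (FDR = 0.91). The call in 30FR was lost without any 1 of its 4 libraries (-0.59 to -0.34), and that in 30WL without replicate 1 at 1 h (-0.64) or replicate 2 at 24 h (-0.55).

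PRE4 and PRE5 stayed close to the detection limit. PRE4 had 1 to 13 counts per library, with 3 counts or fewer in 12 of 32 libraries and 45, 44, 23 and 48 counts in all in 21WL, 21FR, 30WL and 30FR. PRE5 had 0 to 9 counts, with 3 or fewer in 17 libraries and 20, 43, 23 and 53 counts in all in the same conditions. Library sizes differ between the conditions, and the highest single values were 0.679 CPM for PRE4 and 0.504 CPM for PRE5. Without the filter on low counts, PRE5 was called in 30FR over 21WL on the average of the time points (log2FC 1.19, FDR = 0.028).

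IBH1, the inhibitory partner, was modestly higher in 30FR. Over 8 libraries each it ranged from 3.26 to 5.60 CPM in 21WL (median 4.38), from 3.97 to 5.77 CPM in 21FR (median 4.97), from 3.35 to 6.08 CPM in 30WL (median 4.88) and from 4.29 to 7.33 CPM in 30FR (median 6.10). Both libraries of 30FR were above both of 21WL at 1, 3 and 24 h, with 7.15 and 5.53 against 4.13 and 4.34 CPM, 6.33 and 5.86 against 5.28 and 3.26 CPM, and 7.33 and 5.79 against 5.60 and 4.41 CPM. At 6 h they overlapped, at 6.83 and 4.29 against 4.69 and 3.55 CPM.

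IBH1 passed the test at no single time point. Its log2FC in 30FR over 21WL was 0.57 ± 0.24 at 1 h (FDR = 0.076), 0.54 ± 0.24 at 3 h, 0.42 ± 0.24 at 6 h and 0.39 ± 0.23 at 24 h. Averaged over time it was 1.40-fold higher (0.48 ± 0.12, FDR = 0.0019) and 1.26-fold higher than in 21FR (0.33 ± 0.12, FDR = 0.021). The first call was kept without any 1 library (0.39 to 0.56), and the second was lost in 5 of 16 fits (0.24 to 0.41 over all). IBH1, PRE1 and PRE6 were the 3 of 5 members called higher on average in 30FR over 21WL, where 26.7% of all genes were, and IBH1 was the 1 member in 30FR over 21FR, where 25.7% were. In 21FR and 30WL the averages of IBH1 over 21WL were 0.15 ± 0.12 and 0.08 ± 0.13. Its average in 30FR over 30WL was 0.40 ± 0.12 (FDR = 0.060), which the likelihood ratio test called (FDR = 0.038).

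Warmth alone called 0 of 20 tests of the members against 21WL with edgeR's quasi-likelihood test, at which 3 had an unadjusted p under 0.05. DESeq2 called 0 and the likelihood ratio test 1. The background was high in this comparison, with 11.8, 10.4, 6.42 and 5.58% of all genes called higher and 11.1, 9.71, 5.92 and 6.73% lower at 1, 3, 6 and 24 h. Warmth within low R/FR (30FR over 21FR) also called 0 of 20, with 0 at an unadjusted p under 0.05 and 0 by the likelihood ratio test and DESeq2, beside 28.3, 28.9, 20.4 and 21.4% of all genes called in either direction at the 4 times. The PRE1 log2FC there was between -0.35 ± 0.28 and 0.08 ± 0.28.

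When 21FR and 30WL were set against each other, PRE1 was called higher in 21FR at 1, 3 and 6 h, and PRE6 at 1 and 6 h. PRE1 was 5.03-fold higher at 1 h (2.33 ± 0.34, FDR = 4.2e-05), 2.40-fold at 3 h (1.26 ± 0.31, FDR = 0.0040) and 3.62-fold at 6 h (1.86 ± 0.34, FDR = 0.00076), with 0.36 ± 0.32 at 24 h (FDR = 0.49). PRE6 was 1.71-fold higher at 1 h (0.78 ± 0.16, FDR = 0.0012) and 1.87-fold at 6 h (0.90 ± 0.16, FDR = 0.00075). Its values were 0.37 ± 0.16 at 3 h (FDR = 0.079) and -0.39 ± 0.17 at 24 h (FDR = 0.12). Members called higher in 21FR were 2, 1, 2 and 0 of 5 at 1, 3, 6 and 24 h. Of all genes, 11.3, 14.5, 8.1 and 8.32% were called higher. The PRE1 value at 1 h was 1.77 without replicate 2 and 3.04 without replicate 1 of 30WL, with the call kept, and the call at 3 h was lost without replicate 2 of 30WL (0.80, FDR = 0.122).

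Promoting and inhibiting transcripts were also set side by side within each library, as log2 of the summed CPM of PRE1 to PRE6 over the CPM of IBH1, each with 0.5 CPM added. The sum is dominated by PRE3 and PRE6, so only its change between groups is read and no test was made. At 1 h the ratio was 3.2 and 3.09 in the 2 libraries of 21WL, 3.31 and 3.58 in those of 21FR, 2.99 and 2.52 in those of 30WL, and 2.86 and 3.42 in those of 30FR. At 24 h the 21WL libraries were at 2.64 and 2.54, those of 21FR were at 2.67 and 2.40, those of 30WL were at 2.61 and 2.29, and those of 30FR were at 1.99 and 2.46. The mean over the time points was 0.17 above 21WL in 21FR, 0.16 below it in 30WL and 0.15 below it in 30FR.

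The other genes of this HLH network were given by a list of 10 bHLH activators and 8 inhibitory HLH genes. Of these 18 genes 16 were tested, since CIB1 had 0 counts in 32 libraries and CESTA 2 counts in all. Over 8 activators and 4 time points (32 tests), 2 were called higher and 0 lower in 21FR over 21WL, 5 higher and 3 lower in 30WL, and 12 higher and 3 lower in 30FR. For the 8 inhibitors, 21FR gave 6 higher and 0 lower calls, 30WL gave 7 higher and 1 lower, and 30FR gave 16 higher and 0 lower. Of all genes, 0.328, 0.343, 0.645 and 0.278% were called higher and 0.00993, 0.134, 0.169 and 0.382% lower in 21FR at 1, 3, 6 and 24 h. In 30WL the shares were 11.8, 10.4, 6.42 and 5.58% higher and 11.1, 9.71, 5.92 and 6.73% lower, and in 30FR 15.6, 12.3, 12 and 9.29% higher and 15.9, 11.8, 9.96 and 12% lower. The medians of the inhibitors in 30FR were 0.67, 0.88, 0.56 and 0.28 at 1, 3, 6 and 24 h, and those of the activators 0.39, 0.27, 0.25 and 0.13, beside medians within 0.03 of 0 over all genes. HBI1, the activator held back by IBH1, was at 54.5 to 98.2 CPM in the 32 libraries.

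Of the listed genes, 8 passed an FDR under 0.05 with a change beyond 1 on the log2 scale in some comparison of treatments. BEE1, a brassinosteroid early response bHLH activator, moved in low R/FR at both temperatures, with a log2FC over 21WL of 1.60 ± 0.28 in 21FR (FDR = 0.0043) and 1.78 ± 0.27 in 30FR (FDR = 5.6e-05) at 1 h. At 24 h BEE1 was at 0.92 ± 0.29 (FDR = 0.25) and 0.01 ± 0.30 (FDR = 0.99). CIB5 was lower in 30FR at 3 h (-1.14 ± 0.21, FDR = 0.00043), and BEE3 at 24 h was lower with warmth added to low R/FR, in 30FR over 21FR (-1.56 ± 0.26, FDR = 0.00032).

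HFR1, an inhibitor that binds PIF proteins and is itself bound by KIDARI, was the listed gene with the largest change. Its level over 8 libraries was 2.17 to 5.54 CPM in 21WL, 19.8 to 107 CPM in 21FR, 6.80 to 11.6 CPM in 30WL and 49.0 to 98.8 CPM in 30FR, and it was called higher than in 21WL in all 12 tests (log2FC 2.55 to 4.5 in 21FR, 0.98 to 1.40 in 30WL and 3.72 to 4.49 in 30FR). PAR1, another inhibitor of PIF proteins, rose in 30FR by 2.05 ± 0.30 at 1 h (FDR = 2.9e-05) and 1.55 ± 0.30 at 3 h (FDR = 0.00087). AIF3 and AIF4, relatives of IBH1, were 1.15 ± 0.13 (FDR = 1.6e-06) and 1.04 ± 0.12 (FDR = 2.9e-06) higher there at 1 h. AIF1 was 1.07 ± 0.18 higher in 21FR than in 30WL at 3 h (FDR = 0.00015). Group means of AIF1 at 3 h were 19.5 CPM in 21FR, 9.36 CPM in 30WL and 16.4 CPM in 21WL.

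**Figure D4:**
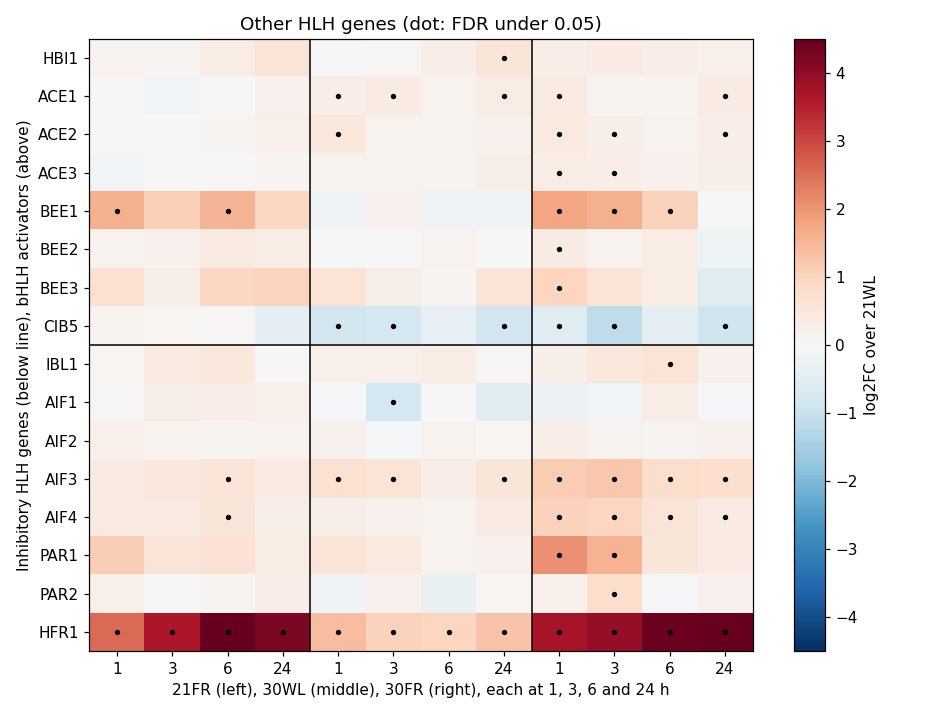
Log2FC over 21WL (colour) of the 16 other HLH genes tested (rows, 8 bHLH activators above and 8 inhibitory HLH genes below the line) in 21FR, 30WL and 30FR at 1, 3, 6 and 24 h (columns), with a dot for an FDR under 0.05. HFR1 is the row with dots in all 12 columns.

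PRE1 shared its pattern over the 16 groups most with SAUR20, an auxin-responsive gene that promotes cell expansion (Pearson r = 0.96 of the mean log2 CPM), and with AT5G12050 and AT1G29460 (both 0.95). The highest values were 0.94, 0.93 and 0.91 for PRE6 (AT1G21060, AT1G67900 and BSK6, a brassinosteroid signalling kinase), 0.91, 0.87 and 0.86 for PRE2 (AT2G30050, AT5G25100 and VLN2, an actin-bundling villin), 0.89, 0.88 and 0.87 for PRE3 (Cand1, AT3G28715 and AT5G25630) and 0.85, 0.84 and 0.82 for IBH1 (SKIP, ATR2 and UBC30). Among the members the highest r was 0.66 between PRE1 and PRE6, followed by 0.59 between PRE3 and PRE6 and 0.51 between PRE1 and PRE2. IBH1 reached at most 0.37, with PRE1. The 16 points share libraries and normalization between genes, and these values are given as a description.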

How the data were processed

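RNA-seq of 32 libraries of whole seedlings was re-analysed from the counts that the authors deposited, which are whole reads per gene without normalization. The authors made stranded mRNA libraries, sequenced single-end reads of 50 bases, aligned them with STAR 2.5.4 (TAIR10) and took strand-specific gene counts with HTSeq 0.6.0. They deposited a second table, described as CPM, which was not used here. Conditions, times and replicates came from the sample labels, and all 32 columns had a sample. Its 5 summary lines, with 2.47 to 3.58% of a library's entries for reads on no gene and 0.262 to 0.529% for ambiguous ones, were excluded throughout.

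The low-count filter asked for over 1 CPM in 2 or more libraries and kept 20145 of the 25886 genes with a count. They entered 1 model of 16 groups in edgeR 4.0.16 (R 4.3.3) with TMM normalization. Contrasts were tested with the quasi-likelihood test, adjusted by Benjamini-Hochberg over these genes (FDR), and called at an FDR under 0.05. All shares of genes called are from this test, and none were taken for the alternatives named below. The SE is the size of the log2FC from a fit without edgeR's prior count (a small added count), divided by the square root of F. The log2FC given is from the fit with that prior count. The named genes are all 7 members, the listed HLH genes with an FDR under 0.05 and a log2FC beyond 1 in a treatment contrast, and the 3 genes most like each tested member by Pearson's r over the 16 groups; HBI1 and markers are named beside them. Members and lists were chosen with earlier results of these data known, and the change of a response from 1 h to 24 h was added after values were seen. Alternatives were the likelihood ratio test, DESeq2 1.42.0, DESeq2 size factors, no low-count filter, each time point alone, the replicate number as a block, a log2FC beyond 1, a pseudocount of 1 in place of 0.5 for the ratio, and each library left out. The fits were tested on simulated data.

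Sequences and coordinates are from RefSeq's TAIR10.1, whose nuclear chromosomes were taken to be those of TAIR10, and 32835 of 33602 identifiers matched. Other software was Python 3.11.15, Biopython 1.88, pandas 2.3.3 and matplotlib 3.10.9.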

Additional observations from a re-analysis of the deposited data

Results flagged for a closer look

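At 30 °C the responses of PRE1 and PRE6 to low R/FR differed between 1 h and 24 h by a test of the difference itself, which was added after the values had been seen. For PRE1 the log2FC of 30FR over 30WL changed by -2.3 from 1 h to 24 h (SE 0.47, FDR = 0.017, edgeR quasi-likelihood test), from 2.41 to 0.11. This call was lost in 6 of 8 fits without 1 library (-3.01 to -1.73, FDR up to 0.105). For PRE6 the log2FC of 30FR over 30WL changed by -1.3 (SE 0.23, FDR = 0.0048), from 1.05 to -0.26, a call lost without replicate 1 of 30WL at 24 h (-1.19, FDR = 0.053). The response of PRE6 to the combined treatment, 30FR over 21WL, changed by -1.02 (SE 0.23, FDR = 0.0094), from 0.93 to -0.09. At 21 °C, in 21FR over 21WL, the change was not called for PRE1 (-0.60, SE 0.48, FDR = 0.99997) or PRE6 (-0.88, SE 0.23, FDR = 0.30). For PRE6 the unadjusted p of the same test was 0.00091, in a comparison with 0.0745% of all genes called lower. The changes at 21 °C and 30 °C were not tested against each other. In the same interval PRE1 rose in 30WL (1.3 ± 0.37 on the log2 scale) and fell in 30FR (-0.99 ± 0.29). Its values in 21WL and 21FR were -0.07 ± 0.38 and -0.67 ± 0.29. The PRE1 changes in 30WL and 30FR were not shown to differ from that in 21WL (FDR = 0.22 and 0.25). PRE6 fell in 30FR (-1.42 ± 0.16) and 21FR (-1.29 ± 0.16), with -0.12 ± 0.17 in 30WL and -0.40 ± 0.16 in 21WL. Seedling age and the duration of treatment cannot be told apart here.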

How the results depend on the processing

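Shares of all genes called were taken with edgeR's quasi-likelihood test alone, so the counts by other tools have no such share beside them. Counts of members called moved by over 1.5 times in these cases. For 21FR over 21WL 3 of 20 tests were called, against 6 with the likelihood ratio test and 5 with DESeq2. For 30WL over 21WL it was 0, against 1 with the likelihood ratio test, with each time point alone and with the replicate number as a block. For 30FR over 30WL it was 3, against 6 with the likelihood ratio test. With a log2FC beyond 1 as well, 21FR over 30WL fell from 5 to 3, 24 h over 1 h from 6 to 3 and the other HLH genes from 105 to 42 calls. The counts for 30FR over 21WL (6), for 30FR over 21FR (0) and for the interaction (0), and the ratio of PRE to IBH1, stayed within 1.5 times or the replicate spread under the alternatives run. Of the single called values, DESeq2 and DESeq2's size factors each lost 1 of 38, each time point alone lost 4 of 17, and the likelihood ratio test, no filter and the block lost 0. The values lost were PRE2 in 30FR over 30WL on average (DESeq2), PRE6 in 21FR on average (DESeq2's size factors, FDR = 0.051) and, with each time point alone, PRE1 in 21FR at 3 and 6 h (FDR = 0.219 and 0.184), PRE1 in 30FR over 30WL at 6 h (FDR = 0.326) and PRE2 in 30FR at 3 h (FDR = 0.0838). The causes were not tested, other than that a fit of 1 time point has fewer libraries. Deviations of same-numbered replicates had no common sign (correlation -0.516 to 0.498 over 24 pairs, median 0.004, above 0.1 in 7), so the numbers were not taken to pair the samples. Both extremes were at 6 h, 0.498 between 30WL and 30FR and -0.516 between 21WL and 21FR. Deviations shared under different replicate numbers were not tested. The block called 4 tests in 21FR over 21WL. Depth limits PRE4 and PRE5, whose counts were at most 13 and 9 a library.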
